A study of Mus musculus with 8 samples.

Results

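The genes described here are the protein-coding genes near the centromeric end of mouse chromosome 5, from 3 to 40 Mb of the GRCm38 assembly, that were measurably transcribed in a hepatoma line with and without the histone methyltransferase G9a. They were chosen by position and level alone within that window: a gene start between 3 and 40 Mb and a mean of at least 1 CPM (counts per 1000000 counts of the library) over 8 libraries. The window itself was picked because the knockout minus wild-type differences in it were known to change along the chromosome, so those differences are described here and no test is made of the change. Of 299 protein-coding genes in the window, 165 were members. A further 131 lay under the minimum, 48 of them with 0 counts in all 8 libraries, and 3 (Il6, Insig1 and Cyp51) were left out by name.

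Hepa 1-6 is a mouse hepatoma cell line. Poly-A RNA was sequenced from 4 libraries labelled as G9a knockout and 4 labelled as wild type, with no other treatment given in the labels. The labels name neither the knocked-out exons nor a clone. They leave unsaid whether the 4 libraries of a genotype are separate cultures, and p-values therefore reflect only the spread among these libraries, which may be technical. Only RNA was analysed here, not DNA copy number or chromatin.

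G9a, encoded by Ehmt2, works as a partner of the related enzyme GLP and methylates histone H3 at lysine 9 up to the dimethyl state, mostly in transcriptionally quiet chromatin. The marks are bound by reader proteins and are linked to repression of genes, often over long stretches that hold several neighbouring genes.

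Ehmt2 was at 116.7, 116.7, 119.8 and 118.8 CPM in the knockout libraries, against 345.4, 307.1, 297.6 and 306.6 CPM in wild-type ones (log2 fold change -1.41 ± 0.05 SE, edgeR adjusted p = 3.82e-10). Library totals were 58256100 to 75025236 counts, so that a count of 0 in 1 library allows up to 0.04 to 0.0515 CPM. Of the hepatocyte markers, 8 of 9 were listed and 5 (Alb, Ttr, Fgb, Serpina1a and Hnf4a) had 0 counts in every library. The hepatocyte markers together were at 119 to 145 CPM in knockout libraries and 6.15 to 7.52 CPM in wild-type libraries, mostly from the fetal liver protein gene Afp. The 5 fibroblast markers, led by Col3a1, summed to 431 to 463 CPM in the knockout and 109 to 119 CPM in the wild type. Macrophage markers summed to 8.11 to 9.38 CPM in the knockout and 5.45 to 9.6 CPM in the wild type, with Adgre1 at 0. Endothelial markers summed to 4.66 to 5.82 CPM in the knockout and 2.33 to 3.51 CPM in the wild type. T cell markers summed to at most 0.065 CPM in the knockout and 0 in the wild type, with Cd3e and Cd3g at 0 in all libraries. The part of these markers in the results below was not tested. All libraries are labelled as the same cell line, so the sums are levels in that line and not numbers of cells of a type. In such bulk RNA, a difference in some cells and a difference in all cells cannot be told apart.

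Genes that start back to back on opposite strands share one promoter region, and 12 such pairs of members described here had start sites at most 1000 bases apart in the GENCODE annotation. The 4 regions printed next are shown because each holds the starts of a gene pair, 1 proximal and 3 distal to the change along the chromosome, and in 3 of them only 1 gene of the pair was called. Each is the 300-base promoter window of the plus-strand gene from RefSeq on GRCm38.p6, 250 bases before its start and 50 after. The RefSeq start of the minus-strand gene lies within it. The GENCODE starts of Atraid, Slc5a6, Eif2b4 and Tmem129 lie outside these windows. Sequences run 5′ to 3′, and capitals mark every CG dinucleotide.
Slc25a40 and Dbf4, chr5:8422588-8422887, plus strand: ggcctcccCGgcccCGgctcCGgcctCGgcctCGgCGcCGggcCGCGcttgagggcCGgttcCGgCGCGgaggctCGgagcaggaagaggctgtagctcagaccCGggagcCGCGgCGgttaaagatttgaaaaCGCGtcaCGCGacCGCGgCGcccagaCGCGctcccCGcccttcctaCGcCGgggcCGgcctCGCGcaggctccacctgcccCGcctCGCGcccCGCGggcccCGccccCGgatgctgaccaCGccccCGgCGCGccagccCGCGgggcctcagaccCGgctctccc
Atraid and Slc5a6, chr5:31048390-31048689, plus strand: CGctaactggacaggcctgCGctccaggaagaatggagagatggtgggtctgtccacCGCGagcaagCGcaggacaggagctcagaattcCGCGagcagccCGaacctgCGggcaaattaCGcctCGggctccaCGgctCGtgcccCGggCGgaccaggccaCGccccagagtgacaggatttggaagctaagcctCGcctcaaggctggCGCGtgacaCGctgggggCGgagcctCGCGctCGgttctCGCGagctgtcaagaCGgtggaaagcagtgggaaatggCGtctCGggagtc
Snx17 and Eif2b4, chr5:31193054-31193353, plus strand: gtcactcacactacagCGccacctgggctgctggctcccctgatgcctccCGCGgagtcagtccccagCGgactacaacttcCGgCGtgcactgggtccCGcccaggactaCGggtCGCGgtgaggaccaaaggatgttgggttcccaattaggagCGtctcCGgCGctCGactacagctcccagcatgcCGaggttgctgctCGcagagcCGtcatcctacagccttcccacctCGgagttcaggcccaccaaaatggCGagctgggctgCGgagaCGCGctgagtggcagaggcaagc
Tacc3 and Tmem129, chr5:33657878-33658177, plus strand: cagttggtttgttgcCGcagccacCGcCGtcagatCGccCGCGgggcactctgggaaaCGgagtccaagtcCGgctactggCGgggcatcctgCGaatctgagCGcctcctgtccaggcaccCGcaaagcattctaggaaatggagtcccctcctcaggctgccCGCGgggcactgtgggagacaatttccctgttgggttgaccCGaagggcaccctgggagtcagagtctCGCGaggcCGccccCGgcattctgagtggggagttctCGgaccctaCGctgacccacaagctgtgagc
The Slc25a40 and Dbf4 window held 47 CG dinucleotides and 79.0% G and C, and 2.65% of all promoter windows had as many CG. Atraid and Slc5a6 shared 29 CG and 65.3% G and C, Snx17 and Eif2b4 22 CG and 64.7%, and Tacc3 and Tmem129 21 CG and 64.3%.

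Over the whole table, 7476 of 15840 genes tested (47.2%) were called at an adjusted p under 0.05 by edgeR's quasi-likelihood test, 23.6% higher and 23.6% lower in the knockout. Among the 11108 protein-coding genes at 1 CPM or more, 57.8% were called, 27.1% higher and 30.7% lower, with a median log2 fold change of -0.03. All 165 members were tested. Of them 118 (71.5%) rose, 10 (6.06%) fell and 37 passed in neither direction. All 4 knockout libraries lay above all 4 wild-type libraries for 114 members and below them for 10, so that 75.2% of members had groups that did not overlap, against 43.9% of all genes tested and 52.7% of protein-coding genes at 1 CPM or more. With library sizes alone as scaling, the table had 4543 genes higher and 2742 lower in place of 3742 and 3734, and the members that fell numbered 5 in place of 10. Called rises of at least 2-fold numbered 21 of 165, against 7.89% of all genes tested and 5.82% of protein-coding genes at 1 CPM or more. Most of the 21 were weakly expressed members, and these shares are not matched for level. No member fell 2-fold. Because the window was chosen for this contrast, these shares describe the members and are no evidence of their own.

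The differences were not spread evenly over the window. In order of gene start, the single split that left the smallest squared deviations on each side fell between Dmtf1, which ends at 9161776, and Sema3a, which starts at 13125414. The 3.96 Mb between them held 17 protein-coding genes under the minimum, 15 with 0 counts in all 8 libraries and none with a mean above 0.0291 CPM, so no member marks the place of the change inside this gap. Proximal to the split were 25 members with starts from 3341485 to 9118801, and distal to it 140 members with starts from 13125414 to 38668484. The split depended on Sema3a, which had a large rise. Sema3a reached the minimum of 1 CPM only through the knockout libraries (mean 4.15 CPM, against 0.617 CPM in the wild type). Without it the split moved to Gsap, which starts at 21186255, and the sides then had 31 members with a median of -0.10 and 133 members with a median of 0.44. With each log2 fold change limited to 1 in either direction the split stayed at Sema3a.

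**Figure D1:**
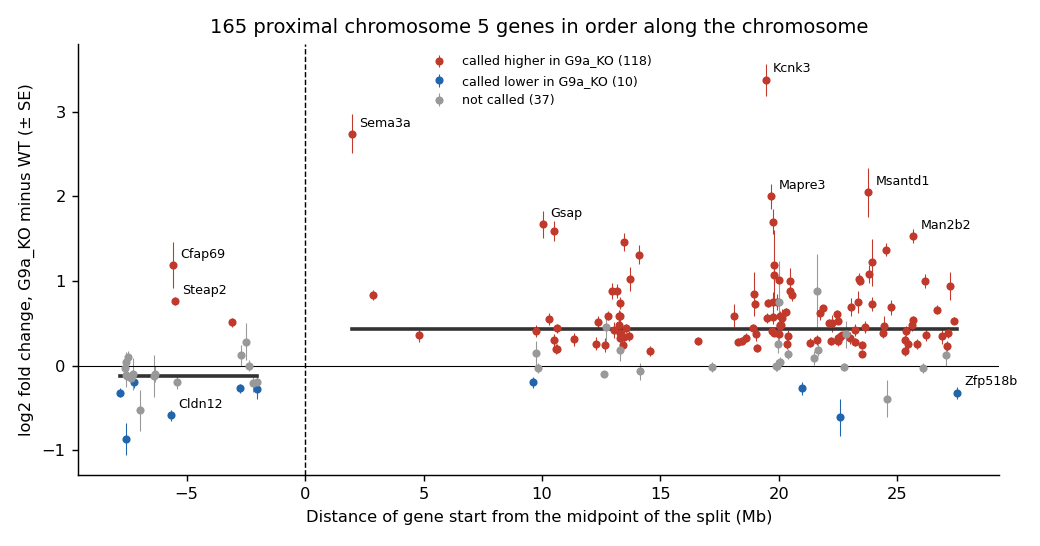
Log2 fold change, knockout minus wild type, of each of the 165 members against the distance of its start from the midpoint of the split in Mb, coloured by whether the gene was called higher, lower or neither. Error bars are SE, horizontal lines the median of each side and the dashed line the split. The 25 proximal members scatter around -0.12, and the 140 distal members around 0.43.

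Proximal members had a median log2 fold change of -0.12, a fold of 0.921, with quartiles of -0.21 and 0.04. Of these 25 members, 3 rose (12%), 6 fell (24.0%) and 16 passed in neither direction. Distal members had a median of 0.43, a fold of 1.35, with quartiles of 0.27 and 0.73. Of these 140 members, 115 rose (82.1%), 4 fell (2.86%) and 21 passed in neither direction. The knockout mean was above the wild-type mean for 7 of 25 proximal and 128 of 140 distal members.

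The distal rise was present in each library. The median distal member was at 0.414, 0.436, 0.418 and 0.423 in the knockout libraries on the log2 scale relative to the wild-type mean (with 0.1 CPM added), against -0.009, 0.01, -0.023 and -0.001 in the wild-type libraries, each wild-type library being set against the other 3. The medians averaged 0.423 ± 0.010 in the knockout and -0.006 ± 0.014 in the wild type (SD, n = 4 each), with no overlap. The median proximal member was at -0.147, -0.124, -0.086 and -0.187 in the knockout libraries, against -0.102, 0.052, 0.07 and 0.011 in the wild-type libraries, and here the groups overlapped. Between 124 and 131 of the 140 distal members were above the wild-type mean in any knockout library, and 55 to 75 in any wild-type library. Summed over the distal members, the level was 11905 ± 52 CPM in the knockout and 9079 ± 93 CPM in the wild type (SD, n = 4 each). Summed over the proximal members it was 481 to 500 CPM in the knockout libraries and 481 to 528 CPM in the wild-type libraries.

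**Figure D2:**
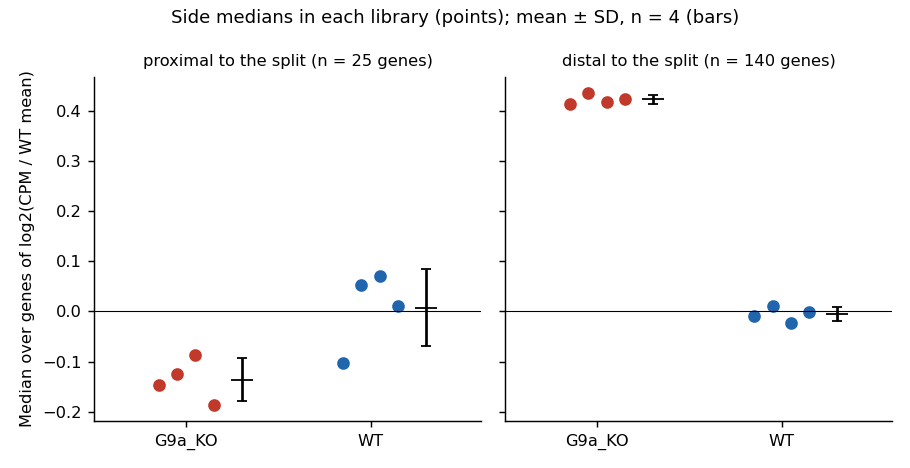
Median over the proximal and over the distal members of the log2 level in each library relative to the wild-type mean, with 4 knockout and 4 wild-type libraries as points and the mean and SD of each group as a bar. Distal medians of the knockout libraries sit between 0.414 and 0.436, apart from the wild-type libraries at -0.023 to 0.01, while the proximal medians overlap.

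Among the proximal members, those nearest the split were Abcb1b, Crot, Tmem243 and Dmtf1. Tmem243 and Dmtf1 overlap each other on opposite strands, and whether they share reads was not tested. Abcb1b, one of the mouse genes for the drug exporter P-glycoprotein, was at 36.6, 38.0, 34.7 and 36.1 CPM in knockout libraries, against 36.9, 34.2, 37.9 and 36.5 CPM in wild-type libraries (log2 0.00 ± 0.06 SE, edgeR adjusted p = 0.995). Its groups overlapped fully. Dmtf1, a Myb-like transcription factor that activates Arf, was at 21.7, 24.6, 25.7 and 23.8 CPM in the knockout, against 23.5, 29.1, 29.1 and 27.4 CPM in the wild type (log2 -0.19 ± 0.08, adjusted p = 0.069). Crot, a peroxisomal carnitine acyltransferase, had a log2 fold change of -0.21 ± 0.10 (adjusted p = 0.0937). Neither passed the test, and the knockout and wild-type values of both overlapped. Without wild-type library 1 both were called lower (adjusted p = 0.00862 for Dmtf1 and 0.0374 for Crot). Tmem243, a small membrane protein gene, fell at 5.24, 5.62, 5.15 and 4.82 CPM in the knockout, against 7.08, 5.98, 5.87 and 6.44 CPM in the wild type (log2 -0.28 ± 0.11, adjusted p = 0.0452). That call was lost under many other settings, with any 1 of 6 libraries left out among them (knockout 1, 3 or 4, or wild type 1, 2 or 4; adjusted p = 0.0514 to 0.119).

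Proximal members with cell cycle roles were lower in the knockout or passed in neither direction. Cdk6, a kinase that partners D-type cyclins in G1, was at 49.3, 48.3, 47.9 and 43.9 CPM in knockout libraries, against 56.2, 60.2, 60.2 and 60.4 CPM in wild-type libraries (log2 -0.32 ± 0.05 SE, edgeR adjusted p = 0.000215). Dbf4, the activating subunit of the Cdc7 kinase that fires replication origins, was at 49.1, 46.4, 45.5 and 47.1 CPM in the knockout, against 54.1, 57.9, 58.7 and 55.6 CPM in the wild type (log2 -0.27 ± 0.05, adjusted p = 0.000602). In both genes every knockout library lay below every wild-type library. The tight-junction gene Cldn12 fell further, at 21.6, 20.7, 21.6 and 20.2 CPM in the knockout against 31.5, 33.5, 33.9 and 27.5 CPM in the wild type (log2 -0.59 ± 0.07, adjusted p = 1.93e-05). The other falls were 1700109H08Rik (log2 -0.87 ± 0.19, adjusted p = 0.00211), which overlaps Rbm48, and Akap9, which codes for a scaffold that anchors protein kinase A (log2 -0.20 ± 0.07, adjusted p = 0.0339) and overlaps Cyp51. The Akap9 groups overlapped, and its call was lost with library sizes alone (adjusted p = 0.196), with upper-quartile scaling (0.118) and without knockout library 1, 3 or 4 or wild-type library 2 or 3 (0.065 to 0.103).

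Of the proximal members 3 rose. Steap2, a metalloreductase, was at 51.1, 53.5, 48.5 and 49.0 CPM in knockout libraries, against 30.2, 30.4, 30.1 and 28.8 CPM in wild-type libraries (log2 0.76 ± 0.05 SE, edgeR adjusted p = 1.11e-07). Sri, which encodes the calcium-binding protein sorcin, was at 45, 49.8, 46.9 and 48.0 CPM in the knockout, against 33.1, 33.7, 31.7 and 34.6 CPM in the wild type (log2 0.51 ± 0.05, adjusted p = 5.06e-06). Cfap69, a gene of cilia and flagella, was weakly expressed at 1.98, 2.47, 2.56 and 2.2 CPM in the knockout, against 0.816, 1.66, 0.725 and 0.81 CPM in the wild type (log2 1.19 ± 0.27, adjusted p = 0.0023). None of the 3 had overlapping groups. The chromatin-associated factor Gatad1, one of the more abundant proximal members, had 48.6 ± 1.65 CPM in the knockout and 52.8 ± 1.88 CPM in the wild type (SD, n = 4 each) and did not pass (adjusted p = 0.0627).

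The 3 distal members nearest the split all rose, but the split was placed by these same fold changes. Without Sema3a it moved to Gsap, and Sema3e and Cacna2d1 then lay proximal to it. Sema3a, a secreted semaphorin that repels growing axons and acts on vessels, was at 3.81, 3.96, 3.87 and 4.96 CPM in knockout libraries, against 0.424, 0.605, 0.899 and 0.54 CPM in wild-type libraries, a log2 fold change of 2.74 ± 0.23 SE (edgeR adjusted p = 4.94e-07). Sema3e, another secreted semaphorin that binds plexin D, was at 44.9, 45.4, 42.3 and 40 CPM in the knockout, against 24.3, 22.8, 24.1 and 25.6 CPM in the wild type (log2 0.83 ± 0.06, adjusted p = 1.77e-07). Cacna2d1, an auxiliary calcium channel subunit, was at 16.5, 17.6, 17.4 and 16 CPM in the knockout, against 11.5, 14.1, 13.7 and 13.2 CPM in the wild type (log2 0.36 ± 0.08, adjusted p = 0.00228). None of the 3 had overlapping groups. The next member, Phtf2, a membrane protein gene, fell to 14.9, 16, 15.4 and 15.6 CPM in the knockout, against 16.7, 17.9, 19.1 and 17.4 CPM in the wild type (log2 -0.20 ± 0.07, adjusted p = 0.031), without overlap. The Phtf2 call was lost with library sizes alone (adjusted p = 0.187), with upper-quartile scaling (0.117), with a replicate block (0.0522) and without knockout library 1, 3 or 4 or wild-type library 2, 3 or 4 (0.0534 to 0.0942).

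Further along, the rise was seen in every stretch with members. From 20 to 25 Mb, 28 of 34 members rose and 1 fell, with a median of 0.42. Of 9 members from 25 to 30 Mb, 7 rose, with a median of 0.29. The gene-dense stretch from 30 to 35 Mb had 68 members, of which 55 rose and 2 fell (median 0.48), and from 35 to 40 Mb 22 of 26 rose and 1 fell (median 0.40). The 3 members before 16 Mb had a median of 0.83.

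A moderate shift was the common pattern. Of the 140 distal members, 79 (56.4%) had a log2 fold change between 0.2 and 0.7, against 18.8% of all protein-coding genes at 1 CPM or more. Another 37 were above 0.7, and 24 below 0.2. The SD between libraries of a group was, for the median distal member, 5.72% of the mean in the knockout and 6.85% in the wild type. Weakly expressed distal members showed the larger differences: the 47 with the lowest levels (1.09 to 23.6 CPM) had a median of 0.75 and 16 of the 20 at least 2-fold rises, the 46 in the middle (23.9 to 73.5 CPM) a median of 0.41, and the 47 most abundant (75 to 620.0 CPM) a median of 0.34 with no 2-fold rise. Over all protein-coding genes in the same ranges of level the medians were 0.09, -0.04 and -0.09. Called rises numbered 36, 38 and 41 in the 3 sets of distal members, from low to high level. Some of the weakest members, Sema3a among them, reached the minimum only through the knockout libraries, so their rises are not independent of it.

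Over all distal members 82.1% rose, against 27.1% of protein-coding genes at 1 CPM or more. The counts by role list that follow stand beside these shares and are no result about a function. Among distal genes of the cell cycle and DNA, all 10 rose (median 0.39), whereas of the 3 proximal ones 2 fell and none rose. Cenpa, the histone H3 variant that marks centromeres, was at 279.6, 267.0, 291.8 and 275.1 CPM in knockout libraries, against 171.4, 160.3, 163.2 and 172.9 CPM in wild-type libraries (log2 0.74 ± 0.05 SE, edgeR adjusted p = 3.44e-08). Tacc3, which stabilises spindle microtubules, was at 205.5, 198.6, 215.4 and 218.2 CPM in the knockout, against 146.0, 141.5, 144.2 and 148.9 CPM in the wild type (log2 0.53 ± 0.04, adjusted p = 6.11e-07). Babam2, a subunit of a BRCA1-containing repair complex, rose as well (log2 0.83 ± 0.07, adjusted p = 3.61e-07), and so did Tyms, the thymidylate synthase (log2 0.44 ± 0.05, adjusted p = 3.59e-06). For these 4 genes the groups did not overlap. The Cenpa level sums several transcript rows. The row annotated as protein-coding had means of 88.4 CPM in the knockout and 56.3 CPM in the wild type. A row annotated as nonsense-mediated decay was at 117 and 55.9 CPM.

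The 12 distal members of mitochondria and metabolism had 11 rises and no fall (median 0.66). Hadha and Hadhb code for the alpha and beta subunits of the mitochondrial trifunctional protein of fatty acid oxidation. Hadha was at 166.0, 169.3, 164.3 and 162.8 CPM in knockout libraries, against 94.5, 106.9, 99.6 and 99.1 CPM in wild-type libraries (log2 0.73 ± 0.05 SE, edgeR adjusted p = 5.23e-08). Hadhb rose less, at 76.7, 74.5, 80.7 and 67.9 CPM in the knockout against 48.9, 63.7, 61.9 and 56.9 CPM in the wild type (log2 0.37 ± 0.08, adjusted p = 0.00166). In both subunit genes the groups did not overlap. The inner mitochondrial membrane protein gene Mpv17, which overlaps Gm29609, also rose (log2 1.01 ± 0.06, adjusted p = 4.24e-08). Khk, the ketohexokinase that starts fructose breakdown, was at 7.49, 6.86, 7.99 and 8.55 CPM in the knockout, against 3.8, 3.6, 3.45 and 3.83 CPM in the wild type (log2 1.07 ± 0.11, adjusted p = 3.55e-06). Prkag2, a regulatory subunit of the energy sensor AMPK, was at 16, 18.2, 15.7 and 15.3 CPM in the knockout, against 5.71, 8.22, 9.88 and 8.32 CPM in the wild type (log2 1.02 ± 0.14, adjusted p = 3.66e-05), with every knockout library higher. Napepld, which makes N-acylethanolamines, rose as well (log2 1.59 ± 0.12, edgeR adjusted p = 2.88e-07). It was at 8.81, 8.42, 8.05 and 7.29 CPM in the knockout against 2.48, 3.06, 2.36 and 2.94 CPM in the wild type. Its most abundant transcript row alone gave 0.23 (adjusted p = 0.677). Cad, the enzyme that begins pyrimidine synthesis and one of the most abundant members, was at 597.4, 672.8, 581.8 and 632.5 CPM in the knockout, against 684.8, 608.5, 572.6 and 616.2 CPM in the wild type, with overlapping groups (log2 0.00 ± 0.06, adjusted p = 0.987).

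Genes of the cytoskeleton, adhesion and matrix rose in 9 of 11 distal cases (median 0.83) with no fall, Sema3a and Sema3e among them. That share is near the 82.1% over all distal members. Add1, an adducin that caps actin filaments at the membrane skeleton, was at 204.1, 212.4, 202.7 and 212.1 CPM in knockout libraries, against 106.8, 101.0, 105.6 and 103.1 CPM in wild-type libraries (log2 1.00 ± 0.04 SE, edgeR adjusted p = 1.4e-09). Mapre3, which binds the growing ends of microtubules, was at 11.3, 12.9, 13.5 and 12.9 CPM in the knockout, against 2.27, 3.44, 2.91 and 4.03 CPM in the wild type (log2 2.0 ± 0.15, adjusted p = 1.91e-07). Wdr1, a cofactor of actin filament disassembly, rose by a smaller amount to 419.5, 398.8, 415.1 and 402.9 CPM in the knockout, against 276.4, 291.1, 279.0 and 283.7 CPM in the wild type (log2 0.53 ± 0.04, adjusted p = 1.67e-07). The groups of all 3 were apart. The elastic fibre glycoprotein gene Emilin1 also rose, at 4.24 ± 0.538 CPM in the knockout and 1.31 ± 0.0656 CPM in the wild type (SD, n = 4 each; log2 1.70 ± 0.15, adjusted p = 1.19e-06).

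Membrane transport genes included the member with the greatest fold change, which reached the minimum of 1 CPM only through the knockout libraries. Kcnk3, a leak potassium channel, was at 9.02, 9.3, 9.55 and 8.45 CPM in knockout libraries, against 0.946, 1.18, 0.522 and 0.841 CPM in wild-type libraries (log2 3.38 ± 0.19 SE, edgeR adjusted p = 1.82e-08), with no overlap. Kcnh2, the voltage-gated potassium channel of cardiac repolarisation, was at 34.3, 39.6, 37.8 and 37.6 CPM in the knockout, against 22.2, 20.2, 17.7 and 20.8 CPM in the wild type (log2 0.88 ± 0.08, adjusted p = 6.71e-07). Of the 8 distal transport genes 7 rose and none fell (median 0.49). Among the 5 proximal transport genes 1 rose and none fell.

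In the group of protein folding, degradation and secretory traffic genes, 15 of 16 distal members rose (median 0.44). Man2b2, a lysosomal mannosidase, was at 34.4, 39.6, 34.5 and 34.6 CPM in knockout libraries, against 13.3, 13, 12.5 and 10.8 CPM in wild-type libraries (log2 1.53 ± 0.08 SE, edgeR adjusted p = 8.58e-09). Mrfap1, an abundant gene of this list, was at 701.8, 650.8, 714.8 and 735.1 CPM in knockout libraries, against 512.4, 462.9, 471.8 and 481.6 CPM in wild-type libraries (log2 0.54 ± 0.05, adjusted p = 9.35e-07). In both genes the knockout libraries lay above all wild-type libraries. Klhl7, a substrate adaptor of a cullin ubiquitin ligase, was at 31.4, 28.2, 33.8 and 27.7 CPM in the knockout, against 14.4, 18.7, 16.3 and 16.4 CPM in the wild type (log2 0.88 ± 0.09, adjusted p = 3.23e-06). Its groups were also apart. Galnt11, which starts O-linked glycosylation, rose likewise (log2 1.31 ± 0.11, adjusted p = 4.63e-07), and so did the proteasome ATPase gene Psmc2 by less (log2 0.44 ± 0.05, adjusted p = 3.63e-06).

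Signalling genes rose in 14 of 17 distal cases and fell in 1 (median 0.48). Sh3bp2, an adaptor of immune and bone cells, was at 19.7, 21.1, 18.2 and 20.5 CPM in knockout libraries, against 10.1, 9.87, 9.86 and 9.41 CPM in wild-type libraries (log2 1.02 ± 0.07 SE, edgeR adjusted p = 1.52e-07). Htt, the gene of huntingtin, was at 110.8, 132.9, 104.3 and 112.6 CPM in the knockout, against 83.5, 87.8, 78.1 and 86.2 CPM in the wild type (log2 0.46 ± 0.07, adjusted p = 0.000131). Neither had overlapping groups. Rheb, a small GTPase that activates mTORC1, rose by less (log2 0.35 ± 0.06, adjusted p = 0.000333). Rgs12, which speeds GTP hydrolysis on G protein alpha subunits, was at 17.4, 18.1, 17.2 and 17.7 CPM in the knockout, against 7.9, 7.31, 7.64 and 10.6 CPM in the wild type (log2 1.08 ± 0.11, adjusted p = 3.12e-06). Evc, a ciliary component of hedgehog signalling, was at 36.4, 42.4, 42.5 and 41.6 CPM in the knockout, against 23.7, 19.2, 18.3 and 20.1 CPM in the wild type (log2 1.00 ± 0.08, adjusted p = 5.25e-07). Neither gene had overlapping groups. Ptpn12, a cytoplasmic tyrosine phosphatase, was at 120.3, 116.2, 119.3 and 112.8 CPM in the knockout, against 109.9, 126.5, 127.5 and 115.0 CPM in the wild type (log2 -0.03 ± 0.06, adjusted p = 0.677), and its groups overlapped. Fgfr3, a fibroblast growth factor receptor, fell at 0.988, 1.18, 1.35 and 1.05 CPM in the knockout, against 2.1, 1.35, 1.58 and 1.95 CPM in the wild type (log2 -0.61 ± 0.22, adjusted p = 0.0339). The knockout libraries lay below the wild-type libraries, though by less than the rounding of the nearest values. The call was lost without knockout library 1, 2 or 4 or wild-type library 1 or 4 (adjusted p = 0.0545 to 0.0918), and the sign turned with the most abundant transcript row (0.30).

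Of the distal chromatin and transcription genes, 9 of 14 rose and 2 fell (median 0.32). Smarcd3, a subunit of the BAF remodelling complex, was at 50.3, 44.7, 62.7 and 47.2 CPM in knockout libraries, against 22.4, 18.3, 16.5 and 17.5 CPM in wild-type libraries (log2 1.46 ± 0.11 SE, edgeR adjusted p = 2.69e-07). The histone H3 methyltransferase gene Nsd2 was at 315.1, 329.5, 305.1 and 300.8 CPM in the knockout, against 238.4, 241.1, 246.2 and 245.8 CPM in the wild type (log2 0.36 ± 0.04, adjusted p = 1.1e-05), and the corepressor gene Ctbp1 rose by 0.50 ± 0.05 (adjusted p = 2.44e-06). These groups were apart. Most of the Smarcd3 level lay in a retained-intron transcript row, with means of 44.8 CPM in the knockout and 17.2 CPM in the wild type. Its protein-coding row was at 5.33 and 1.01 CPM, and Smarcd3 overlaps Chpf2. The homeobox gene Msx1 was at 38.9, 37.3, 37.8 and 35.9 CPM in the knockout, against 23.7, 24.2, 23.6 and 23.6 CPM in the wild type (log2 0.66 ± 0.05, adjusted p = 4.33e-07), again with no overlap. Kmt2e, a relative of the trithorax methyltransferases, rose by less (log2 0.26 ± 0.08, adjusted p = 0.0189). Kmt2c, which encodes an enhancer-associated histone methyltransferase, was at 23.8, 29.6, 21.3 and 21.4 CPM in the knockout, against 25.6, 26.8, 24.3 and 24.5 CPM in the wild type, with overlap (log2 -0.07 ± 0.10, adjusted p = 0.575). Fosl2, a partner in AP-1, fell at 32.4, 35.9, 33.4 and 35.2 CPM in the knockout, against 49.2, 40, 39.1 and 36.7 CPM in the wild type (log2 -0.27 ± 0.08, adjusted p = 0.0158), and Zfp518b, a zinc-finger gene, fell by 0.32 on the log2 scale (SE 0.07, adjusted p = 0.00287). In both, every knockout library was below every wild-type library. The Fosl2 call was lost with library sizes alone (adjusted p = 0.0856), with upper-quartile scaling (0.0515) and without knockout library 1 (0.0505). In RNA processing, ribosome and translation, 10 of 13 distal members rose and none fell (median 0.28), among them the mitochondrial ribosomal protein gene Mrpl33 (log2 0.88 ± 0.06, adjusted p = 1.4e-07) and Srpk2, a kinase of splicing factors (log2 0.51 ± 0.07, adjusted p = 5.33e-05).

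Outside the 8 role lists, 30 of 39 distal genes rose and 1 fell (median 0.41), and of 4 proximal ones none rose and 2 fell. Ywhah, a phosphoserine-binding adaptor, was at 431.2, 415.9, 433.5 and 429.2 CPM in knockout libraries, against 265.7, 261.3, 263.3 and 277.4 CPM in wild-type libraries (log2 0.68 ± 0.04 SE, edgeR adjusted p = 2.07e-08). Htra3, a secreted serine protease, was at 17.9, 20.7, 17.5 and 19.3 CPM in the knockout, against 7.75, 7.2, 6.96 and 7.27 CPM in the wild type (log2 1.37 ± 0.08, adjusted p = 2.69e-08). In both genes every knockout library lay above every wild-type library. Depdc5, which restrains mTORC1, rose too (log2 0.62 ± 0.08, adjusted p = 3.79e-05). Gsap, a gamma-secretase activating protein gene, was at 6.71, 7.91, 7.63 and 6.22 CPM in the knockout, against 2.25, 1.89, 1.83 and 2.97 CPM in the wild type (log2 1.67 ± 0.16, adjusted p = 2.34e-06).

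**Figure D3:**
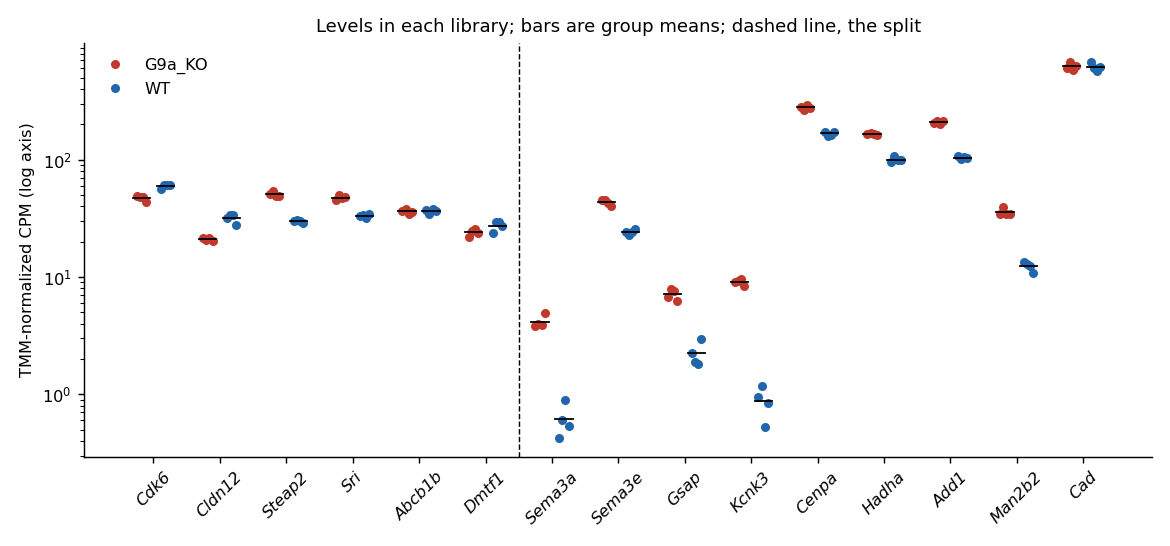
Level of selected members in each library, as CPM on a log axis, with knockout libraries left of wild-type libraries for each gene. Horizontal bars are group means, and the dashed line parts proximal from distal genes. Abcb1b and Dmtf1 overlap between genotypes, whereas Sema3a, Kcnk3 and Add1 do not.

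Members at the edge of the level minimum were weakly measured. A member could reach it through 1 genotype alone, as Garem2 did (mean 1.47 CPM in the knockout, 0.817 CPM in the wild type). Just above 1 CPM were Msantd1 (log2 2.05 ± 0.29, edgeR adjusted p = 5.53e-05), which overlaps Htt, Garem2 (log2 0.85 ± 0.26, adjusted p = 0.0167), which overlaps Hadha, and Mterf1b (log2 -0.53 ± 0.24, adjusted p = 0.0951), a proximal member. Just below it were Grk4 at a mean of 0.965 CPM, Reln at 0.934 CPM and Gbx1 at 0.896 CPM. Reln, the matrix protein reelin, was at 1.47, 1.59, 1.58 and 1.68 CPM in knockout libraries, against 0.245, 0.303, 0.406 and 0.0635 CPM in wild-type libraries (log2 2.62 ± 0.39, adjusted p = 1e-04), with no overlap. Of the genes under the minimum, 30 distal ones passed the filter of the test and 13 of them rose while 2 fell. Of 2 proximal ones none was called. Among the 13 rises, 8 are the Speer4e and predicted genes given under other observations. All of these genes had to reach a level in at least 1 group to be tested. They could do so through 1 group alone, so the counts are no result about direction or side.

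Back-to-back pairs show neighbours side by side. The 2 proximal pairs described here, Ankib1 with Krit1 and Dbf4 with Slc25a40, had log2 fold changes between -0.27 and 0.12. Ankib1 was at 0.10 ± 0.07 and Krit1, a gene of endothelial junctions, at -0.15 ± 0.08, neither called. Dbf4 fell, as given above, while Slc25a40, a mitochondrial carrier, was at 7.28, 7.19, 9.25 and 7.68 CPM in knockout libraries, against 5.94, 7.64, 7.28 and 8.0 CPM in wild-type libraries (log2 0.12 ± 0.12 SE, edgeR adjusted p = 0.449), with overlap. The CG-rich window printed for this pair thus held the start of 1 gene that fell and of 1 that was not called.

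Of the 10 distal pairs, 5 had both genes called higher and 4 had 1 of them called higher. Over all distal members 82.1% were called higher, so these counts are no result about pairs. Hadha with Hadhb and Tmem129 with Tacc3 were pairs in which both rose, and in the pair of Rbks, the ribokinase, with Babam2 the log2 fold changes were 1.00 and 0.83. Cdk5, a kinase best known from neurons, was at 33.9, 31.2, 35.5 and 33.6 CPM in knockout libraries, against 21.8, 19.3, 19.9 and 19.5 CPM in wild-type libraries (log2 0.74 ± 0.07, adjusted p = 8.93e-07). Its partner Slc4a2, an anion exchanger, was at 139.8, 145.0, 133.0 and 145.6 CPM in the knockout, against 125.0, 98.1, 96.6 and 111.0 CPM in the wild type (log2 0.39 ± 0.07, adjusted p = 0.000741). Both rose without overlap. Snx17, a sorting nexin of endosomal recycling, was at 134.9, 124.8, 131.5 and 141.4 CPM in knockout libraries, against 98.1, 84.6, 79.9 and 90.2 CPM in wild-type libraries (log2 0.59 ± 0.06 SE, edgeR adjusted p = 5.67e-06), without overlap. Its partner Eif2b4, a subunit of a translation initiation exchange factor, was at 67.0, 58.2, 61.3 and 67.7 CPM in the knockout, against 67.4, 60.3, 61.9 and 57.9 CPM in the wild type (log2 0.04 ± 0.06, adjusted p = 0.662), with overlap. Atraid rose by 0.75 ± 0.09 (adjusted p = 2.3e-05), at 14.3, 14.1, 15.3 and 15.9 CPM in the knockout against 8.58, 7.72, 10.2 and 8.89 CPM in the wild type. Its partner Slc5a6, a vitamin transporter, was at 19.9, 22.9, 20.7 and 20 CPM in the knockout, against 22.6, 21.6, 19.7 and 19.7 CPM in the wild type, with overlap (log2 0.00 ± 0.07, adjusted p = 0.992). In both pairs, as in Tmem129 with Tacc3, the genes as annotated by GENCODE overlap at their starts, where reads could have been assigned to either. The RefSeq starts of Atraid and Slc5a6 lie 78 bases apart and those of Snx17 and Eif2b4 165 bases apart. Of the 165 members, 73 overlap another gene at 0.1 CPM or more. Over the distal pairs, the median difference between partners was 0.30 on the log2 scale. The ratio of the partners did not overlap between genotypes in 6 of 10 distal pairs and in the 2 proximal pairs. The share over other gene pairs was not computed. Whether counting used the strand of reads is not given in the sources used here.

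**Figure D4:**
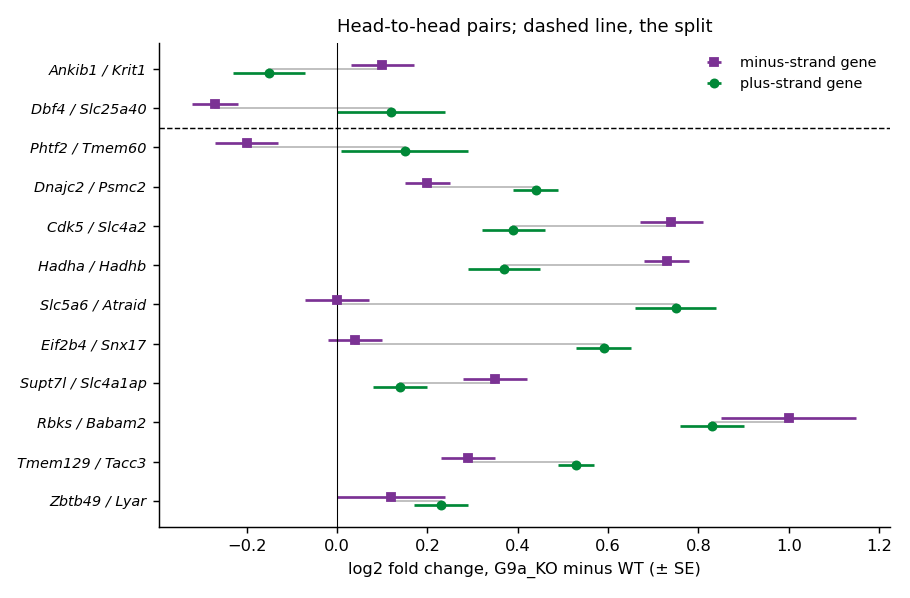
Log2 fold change, knockout minus wild type, of the minus-strand and the plus-strand gene of each of 12 back-to-back pairs, joined by a line, with SE as error bars. Proximal pairs are above the dashed line and distal pairs below it. The distal pairs lie mostly above 0, and some, such as Slc5a6 with Atraid, have 1 gene near 0 and the other above it.

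Promoter windows were compared by their letters. Of the members, 151 matched a RefSeq promoter window, 23 proximal and 128 distal. The median number of CG dinucleotides was 25 in proximal, 23 in distal and 22 in all 8796 windows of genes, and the median share of G and C was 66.3%, 62.5% and 61.7%. At least 10 CG were present in 87.0% of proximal, 89.1% of distal and 86.5% of all windows. Distal members with at least 10 CG had a median log2 fold change of 0.41 with 95 of 114 called higher, and the 14 with fewer had a median of 0.72 with 12 called higher. Over all distal members 82.1% were called higher. The sets by CG count were not matched for level, and weakly expressed distal members had the larger differences. These are descriptions of the windows and are no test.

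The table lists transcripts, and its rows for 1 gene need not move together. Of the members, 93 had at least 2 rows at 1 CPM or more. In the 83 distal genes of this kind, 210 of 270 rows had a higher knockout mean, with a median log2 ratio of 0.46. All 4 knockout libraries were above all wild-type libraries in 77 of the 270 rows and below them in 4. In the 10 proximal genes, 15 of 32 rows had a higher knockout mean (median -0.02), with the knockout libraries above in 1 row and below in 1. The shares over transcript rows of all genes were not computed, so these counts only describe the members. Of 72 distal genes that rose as a sum and had such rows, all rows were higher in 45, and 4 genes had a row with every knockout library below every wild-type library. One of these was Ctbp1, whose sum rose while a minor row was at 0.39 CPM in the knockout and 2.26 CPM in the wild type, and the others were Agap3, Evc2 and D5Ertd579e. With only the most abundant row of each gene, Dnajc2 was at 0.0 on the log2 scale (edgeR adjusted p = 0.987). Counting Dnajc2, 17 of the genes named here lost their call under this setting with no turn in sign. These were Steap2, Dbf4, Cfap69 and Akap9 among proximal members, and Cacna2d1, Napepld, Mpv17, Fosl2, Add1, Zfp518b, Dnajc2, Hadhb, Snx17, Kmt2e, Nsd2, Prkag2 and Tmem129 among distal members.

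The rise went on past 40 Mb. On the rest of chromosome 5, 377 of 543 protein-coding genes at 1 CPM or more (69.4%) rose and 24 (4.42%) fell, with a median of 0.33. In bins of 10 Mb, the median was -0.12 before 10 Mb (25 genes), 0.83 from 10 Mb (3 genes), and between 0.25 and 0.47 in each bin from 20 to 150 Mb. The last bin, of 7 genes, had a median of 0.72. The first bin was the only one with a negative median and with more falls (6) than rises (3).

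**Figure D5:**
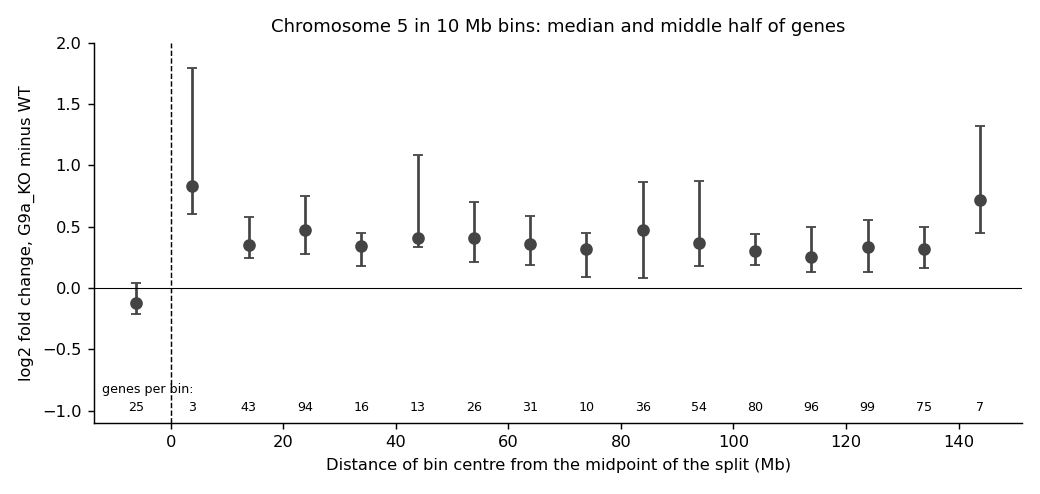
Median log2 fold change, knockout minus wild type, of protein-coding genes at 1 CPM or more in bins of 10 Mb along chromosome 5, against the distance of the bin centre from the split in Mb. Bars span the quartiles, and the number of genes stands under each bin. The bin before 10 Mb is at -0.12, and the bins from 20 to 150 Mb are between 0.25 and 0.47.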

How the data were processed

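RNA was measured in 4 knockout and 4 wild-type libraries. Per the labels' protocols, poly-A libraries were made from total RNA with a SMARTer kit. FastQC, Trimmomatic, HISAT2 and GRCm38.p6 are named in the submitters' processing notes. Counting and its use of strand: not given in the sources used here. Values were deposited by the authors as whole-number counts per transcript, not normalized, as the values show, for 115220 transcripts.

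Of these, 114332 (99.23%) matched GENCODE mouse release M21 and were summed to 47434 genes. The other 888, with 0.148% to 0.17% of the counts of a library, were left out. Library totals of 58256100 to 75025236 counts set the depth, and the limit given for a count of 0 covers counting error only. Genotypes were compared with the two-sided quasi-likelihood F test of edgeR 4.0.16 (R 4.3.3, TMM, filterByExpr, genotype as the only term, Benjamini-Hochberg adjustment over all 15840 genes tested). All log2 fold changes subtract wild type from knockout, and SE is their size over the square root of F. Levels in single libraries are TMM-normalized CPM, and only the minimum of 1 CPM used library totals. A gene "rose" or "fell" at an adjusted p under 0.05. The code was tested on simulated data.

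The split was the single place in gene order, with at least 5 members a side, that left the smallest squared deviations of log2 fold changes. It is a description. Members and lists were chosen with earlier results of these data known, and 8 genes were moved between the 8 role lists after their values were seen. Genes were named by a rule: the 4 nearest the split on each side, the 4 most abundant, the 4 largest rises and falls among called members with at least 5 CPM, up to 3 per role list by lowest p, and the 3 on each side of the minimum. Not all of these are described, and 1 gene pair is not reported here. Members of back-to-back pairs, Akap9, 1700109H08Rik, Cfap69, Emilin1, Khk, Fgfr3, Kmt2c, Rheb, Depdc5, Reln, Agap3, Evc2, D5Ertd579e and other named genes outside the rule were chosen after their values were seen. Alternatives were DESeq2 1.42.0, limma-voom (limma 3.58.1), other scalings and filters, a replicate block, the most abundant row of a gene, and each library left out; 3 alternatives on the split were added after seeing the data.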

Additional observations from a re-analysis of the deposited data

Results flagged for a closer look

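Single libraries stood apart from the other 3 of their group in 8 of 164 groups of 4 libraries of named members, by the size of the gap relative to the range of the group (above Dixon's 95% critical value). Chance flags about 1 in 20 groups. On the knockout side, the highest Sema3a library was at 4.96 CPM, the highest Msantd1 library at 1.85 CPM and the highest Man2b2 library at 39.6 CPM, and the lowest Evc library was at 36.4 CPM. On the wild-type side, the highest Mterf1b library was at 1.86 CPM and the highest Cfap69 library at 1.66 CPM, and the lowest Cdk6 library was at 56.2 CPM and the lowest Emilin1 library at 1.21 CPM.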

How the results depend on the processing

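The number of members that fell was the least stable count: 10 as reported, but 5 with genes of at least 5 CPM, 5 with library sizes alone, 5 with upper-quartile scaling and 5 with the most abundant transcript row, and 5 to 11 with 1 library left out. Called members numbered 122 to 130 and rises 114 to 119 with 1 library left out. With the most abundant row there were 92 called members and 87 rises. The split moved to Sema3e, at 14025276, both with genes of at least 5 CPM tested and with members of at least 5 CPM, where Sema3a is under the minimum, and to Gsap, at 21186255, without Sema3a or without Sema3a, Sema3e and Cacna2d1. The proximal median was -0.04 with library sizes alone, and -0.156 to -0.097 with 1 library left out. The distal median, 0.432 as reported, was 0.446 with genes of at least 5 CPM, 0.512 with library sizes alone, 0.49 with upper-quartile scaling, 0.482 with the most abundant row and 0.406 with members of at least 5 CPM, and 0.421 to 0.446 with 1 library left out.

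For 80 named genes under 1349 gene and setting combinations, the direction and the side of the threshold held in 1277, the call was lost in 62, gained in 4, and the sign turned in 6. Slc25a40 turned to -0.19 and Fgfr3 to 0.3 with the most abundant row, Kmt2c to 0.01 with library sizes alone, and Ptpn12 to 0.01 with genes of at least 5 CPM, 0.05 with library sizes alone and 0.03 with upper-quartile scaling. The calls of Tmem243, Phtf2, Akap9, Fgfr3 and Fosl2 were lost under several settings. The most abundant row alone ended 17 calls, among them Steap2 (0.73), Dbf4 (-0.23), Mpv17 (1.08) and Add1 (0.68). The cause of these changes was not tested.

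Replicate numbers are shared between the genotypes, but same-numbered libraries did not deviate together (correlations of -0.147 to 0.145), so the numbers do not pair them. With a replicate block there were 128 called members, 120 higher and 8 lower, with medians of -0.121 and 0.432. Under the block Dmtf1 was called (adjusted p = 0.0325), while Tmem243 (0.0767), Phtf2 (0.0522) and Fgfr3 (0.0731) were not.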

Other observations

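Between Sema3a and 16 Mb lies a run of genes, Speer4e and predicted genes from 14910122 to 15657059 on GRCm38, that was left out for levels under 1 CPM. The means of the 8 of them that entered the edgeR fit were 0.268 to 1.48 CPM in the knockout and 0.0254 to 0.313 CPM in the wild type. Genes this weak in the wild type could enter the fit through the knockout libraries alone, so their direction is no result. Whether these genes share reads was not tested, and the values of single genes are uncertain.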
